A study of Mus musculus with 17 samples.

Results

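Neurotrophic ligands and their receptors were followed through the cochlear transcriptome of mice 2 days after noise exposure. The set held 8 protein-coding genes, taken by symbol, of the 35285 genes in the expression table, and each symbol had 1 entry. The ligands were Bdnf, Ntf3, Ntf5 and Gdnf, and the receptors were Ntrk2, Ntrk3, Ngfr and Sort1. RNA came from 17 wild-type C57BL/6J mice, bought at 8 weeks of age, with 1 library per mouse. The 3 control mice received saline and heard no noise. The 7 mice of the NE group were exposed for 2 h to noise of 8 to 16 kHz at 100 dB, which the sample labels call broadband and the methods of the study call octave-band. The 7 mice of the brimonidine group heard the same noise and were injected intraperitoneally with 1 mg/kg of brimonidine, which activates α2-adrenergic receptors. The labels place these injections before the noise, and the methods place them on the days before, of and after it. None of the libraries analysed here came from mice given brimonidine without noise, so an effect of the drug alone cannot be told apart from its effect on exposed ears.

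Neurotrophins are secreted proteins on which sensory neurons depend for survival and for keeping their synapses. Each mature neurotrophin binds a Trk receptor tyrosine kinase, and the unprocessed proneurotrophins bind p75, encoded by Ngfr, together with sortilin, encoded by Sort1. In the inner ear, hair cells and supporting cells make BDNF and neurotrophin-3, and spiral ganglion neurons carry the matching receptors TrkB and TrkC, encoded by Ntrk2 and Ntrk3. GDNF belongs to a separate family that signals through the receptor Ret.

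The main result was a lower level of both Trk receptors in every exposed library than in any control library. Such a separation also held for 15.0% of all genes tested between NE and control and 14.3% between brimonidine and control. Ntrk3 passed the filter on low levels only with the help of the controls. No difference was detected between the NE and brimonidine groups, where 0 of all 15707 tested genes were called. Mean levels of Ntrk2 and Ntrk3 were 3.51 and 6.24 times as high in the control group as in the NE group, and 2.39 and 3.98 times as high without control 2, the highest control library. Ngfr and Sort1 did not pass the test in any comparison. Of the 4 ligands only Ntf5 was above the filter on low levels, in 2 of the 3 comparisons. It was not called, but at its level it could not have been called lower, as set out below.

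Levels are given as FPKM, the number of sequenced fragments assigned to a gene, corrected for exon length and for the library's assigned total. The 3 control libraries held 14457733 to 16080796 assigned fragments and the 14 exposed libraries 15769236 to 18288854. Control 2 stood apart: its median correlation with the other libraries was 0.831, against 0.947 to 0.981 for the other 16. The labels name the tissue as cochlear cells and the cell type as interstitial cells, and the methods describe RNA from whole cochleae in one place and from basilar membrane tissue in another. Neutrophil markers, with S100a9, Ngp and S100a8 in the lead, had a mean log2(FPKM + 1) of 9.50 to 11.96 in the 17 libraries, and hair cell markers had 1.19 to 1.88, with only 4 of 10 of them at 1 FPKM or above in all libraries of each group. Because the RNA is from mixed tissue, a different mix of tissues in the sample, fewer cells of a type and less RNA per cell cannot be told apart in any value given here.

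The ligands were measured at low levels. Bdnf (ENSMUSG00000048482, chr2:109674700-109727007, plus strand, build mm10), the gene of brain-derived neurotrophic factor, stood at 0.356, 1.13 and 0.390 FPKM in controls 1, 2 and 3. Its lowest, median and highest levels were 0.136, 0.194 and 0.515 FPKM in the NE group and 0.215, 0.327 and 0.380 FPKM in the brimonidine group. Control 2 was the highest of all libraries, and the other 2 controls lay within the range of the exposed libraries. Behind these values stood 15 to 107 fragments per library, so the values carry a large counting error. The gene overlaps 896 exon bases of Gm45346 on the opposite strand, which was itself above 0 in 2 libraries, at no more than 0.0977 FPKM, and the strand setting of the counting is not given in the sources used here.

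Ntf3 (ENSMUSG00000049107, chr6:126101412-126166910, minus strand), which encodes neurotrophin-3, had 0.686, 2.15 and 0.726 FPKM in controls 1, 2 and 3. The NE libraries ran from 0.166 over a median of 0.383 to 0.766 FPKM, and the brimonidine libraries from 0.131 over 0.324 to 0.645 FPKM. All 3 controls were above all 7 brimonidine libraries, and 1 NE library, NE 5, was above controls 1 and 3. The counts were 4 to 56 fragments per library, the lowest of the set.

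Ntf5 (ENSMUSG00000074121, chr7:45413695-45417179, plus strand) encodes neurotrophin-4, the other ligand of TrkB. Its controls stood at 0.939, 0.447 and 1.43 FPKM, and control 2 was here the lowest control. The NE group spanned 0.580 to 1.32 FPKM around a median of 0.932, and the brimonidine group 0.380 to 1.02 around 0.724. All 3 groups overlapped.

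Gdnf (ENSMUSG00000022144, chr15:7811011-7837575, plus strand), the gene of glial cell line-derived neurotrophic factor, had 0.237, 0.638 and 0.478 FPKM in the controls. In the NE group it ranged from 0.179 to 0.436 FPKM with a median of 0.323, and in the brimonidine group from 0.271 to 0.465 with a median of 0.411. The lowest control lay among the exposed libraries, and 11 to 34 fragments per library stood behind the values.

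**Figure D1:**
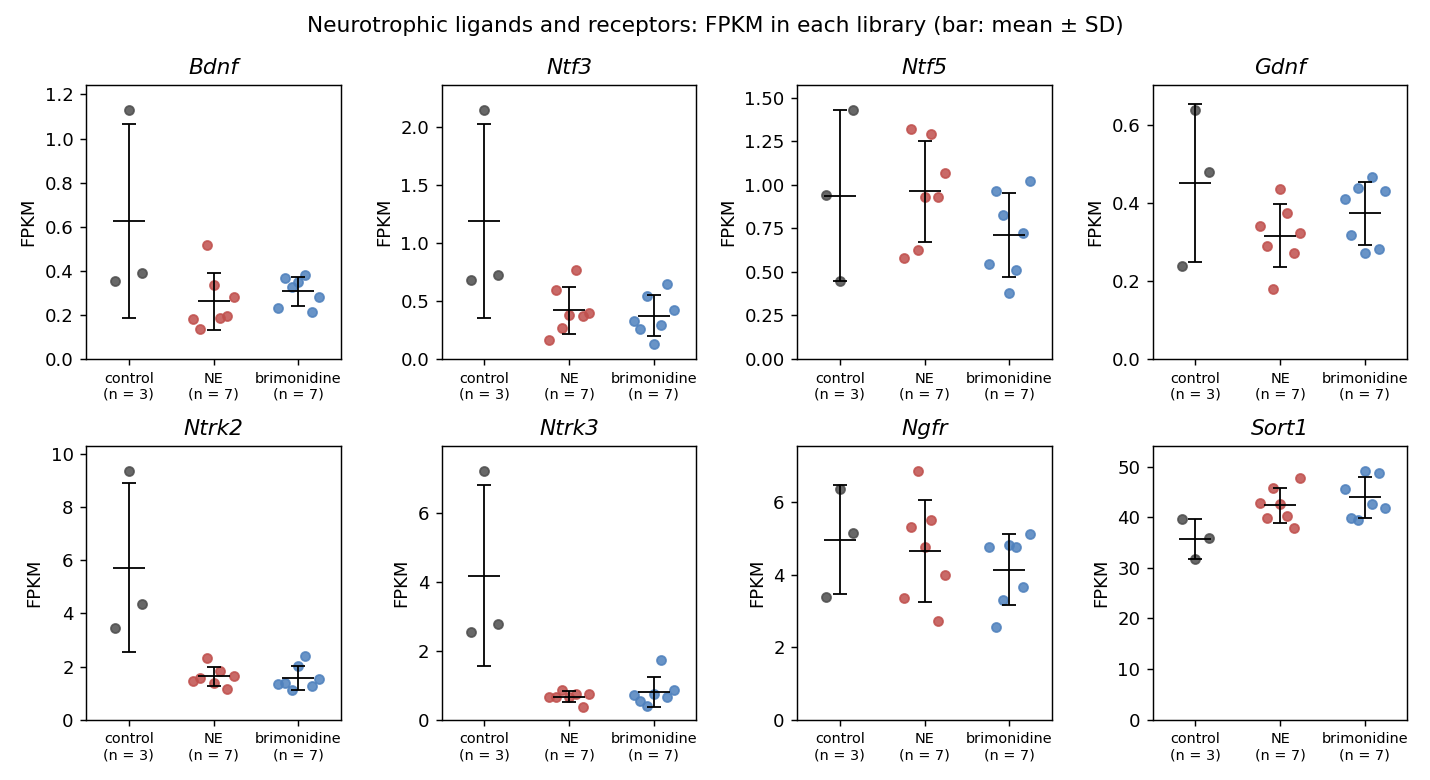
FPKM of the 4 ligands (upper row) and 4 receptors (lower row) in the 3 control, 7 NE and 7 brimonidine libraries, each axis starting at 0. Points are libraries, and black bars are the group mean ± SD. For Ntrk2 and Ntrk3 all control points lie above all exposed points, and control 2 is the highest point of the plots for Bdnf, Ntf3, Gdnf, Ntrk2 and Ntrk3.

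The receptors were measured with 148 or more fragments in every library. Ntrk2 (ENSMUSG00000055254, chr13:58806569-59133970, plus strand) encodes TrkB, the receptor of BDNF and neurotrophin-4. Controls 1, 2 and 3 had 3.45, 9.36 and 4.34 FPKM. The 7 NE libraries had a lowest level of 1.17 FPKM in NE 6, a median of 1.56 and a highest level of 2.31 in NE 3. The brimonidine libraries ran from 1.12 over a median of 1.39 to 2.40 FPKM in brimonidine 5. No exposed library reached the lowest control, and control 2 was more than 2 times as high as the other controls.

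Ntrk3 (ENSMUSG00000059146, chr7:78175959-78738012, minus strand) encodes TrkC, the receptor of neurotrophin-3. Its levels in controls 1, 2 and 3 were 2.55, 7.22 and 2.78 FPKM. The NE libraries lay between 0.366 FPKM in NE 6 and 0.852 in NE 3, with a median of 0.661. Those of the brimonidine group lay between 0.409 FPKM in brimonidine 3 and 1.74 in brimonidine 5, with a median of 0.709. Brimonidine 5 was the only exposed library above 1 FPKM, and it remained below all controls. The annotation lists 10 transcripts of Ntrk2, 7 of them protein-coding, and 20 of Ntrk3, 6 of them protein-coding, and a level per gene pools the full-length receptors with forms that lack the kinase.

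Ngfr (ENSMUSG00000000120, chr11:95568818-95587735, minus strand) encodes p75, which binds all neurotrophins and, with sortilin, their precursors. The controls had 3.39, 6.35 and 5.16 FPKM. Levels in the NE group were 2.72, 4.76 and 6.87 FPKM at the lowest, median and highest library, and those in the brimonidine group were 2.55, 4.75 and 5.11. The groups overlapped, and NE 6 and NE 3 were the lowest and highest NE libraries, as they were for Ntrk2 and Ntrk3.

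Sort1 (ENSMUSG00000068747, chr3:108284082-108361511, plus strand) encodes sortilin, a sorting receptor that also takes proteins to the lysosome. It was the most abundant member, with 39.6, 31.7 and 35.8 FPKM in controls 1, 2 and 3. The NE group ranged from 37.9 to 47.7 FPKM with a median of 42.6, and the brimonidine group from 39.4 to 49.2 with a median of 42.7. Controls 2 and 3 were below all 14 exposed libraries, and control 1 lay within their range. Sort1 shares 338 exon bases with Gm12523 on the opposite strand, which had 0.834 FPKM or less in every library.

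The start regions of Ntrk2 and Ngfr are shown as those of 1 receptor that was lower after noise and 1 for which no difference was detected. They are RefSeq promoters on GRCm38.p6, running from 250 bases before to 50 bases after the annotated start, and 5 of the 8 members had an entry in the table. Capitals mark GC boxes (GGGCGG on either strand, written as CCGCCC where it lies on the opposite strand). The Ntrk2 region lies at chr13:58806319-58806618 on the plus strand and the Ngfr region at chr11:95587649-95587948 on the minus strand.
Ntrk2: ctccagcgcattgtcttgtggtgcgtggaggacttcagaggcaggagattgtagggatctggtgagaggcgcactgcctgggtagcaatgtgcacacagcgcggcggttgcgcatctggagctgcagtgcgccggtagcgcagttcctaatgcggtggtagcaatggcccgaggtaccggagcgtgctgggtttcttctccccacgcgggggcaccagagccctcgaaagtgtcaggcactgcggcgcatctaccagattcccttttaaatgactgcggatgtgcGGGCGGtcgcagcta
Ngfr: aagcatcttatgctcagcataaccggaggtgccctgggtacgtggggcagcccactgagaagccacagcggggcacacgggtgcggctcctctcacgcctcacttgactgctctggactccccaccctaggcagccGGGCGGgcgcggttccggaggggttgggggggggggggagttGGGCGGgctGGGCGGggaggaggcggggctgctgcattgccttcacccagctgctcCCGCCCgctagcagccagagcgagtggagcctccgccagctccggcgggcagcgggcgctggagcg
The Ntrk2 region had a GC content of 61.3% and 1 GC box, and the Ngfr region had 71.7% and 4. Over all 32851 promoters of this length the median GC content was 52.7%, and 35.7% held at least 1 GC box. The cAMP response element TGACGTCA, present in 1.79% of all promoters, was in none of the promoters of the 5 members. Ntf5, Ntrk3 and Sort1 had no entry.

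The first comparison asked how noise alone was followed by change in the cochlea. Between the NE and control groups, both Trk receptors were lower after noise. Ntrk3 averaged 0.670 ± 0.153 FPKM (SD, n = 7) after noise and 4.18 ± 2.63 (n = 3) in the controls, and its log2 fold change was -1.53 ± 0.23 (SE, limma adjusted p = 0.00146). Ntrk2 averaged 1.63 ± 0.366 FPKM against 5.72 ± 3.19, with a log2 fold change of -1.26 ± 0.23 (limma adjusted p = 0.00411). Fold changes are those of FPKM + 1 in log2 units, and for low levels such as these the added 1 makes them smaller than the fold of the means. A gene averaging under 1 FPKM in the reference group cannot reach a 2-fold lower value on this scale, even at 0 FPKM. This held for Ntf5, at 0.938 FPKM in the controls and 0.963 in the NE group. It also held for Bdnf and Gdnf, at 0.627 and 0.451 FPKM in the controls.

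Of the 8 members, 5 passed the filter on low levels, which asked for 3 or more libraries at 1 FPKM or above, and 2 were called, both lower, at an adjusted p under 0.05 and at least a 2-fold change. Over all 15950 genes tested, 5.49% were called lower and 0.270% higher. Ntrk3 passed the filter through the 3 controls alone, where it was high, so its call is no independent support. For both genes the groups did not overlap, which also held, in the lower direction, for 15.0% of all genes tested, and the exact two-sided permutation test gave p = 0.0167, the smallest that 7 against 3 libraries allow.

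The size of these differences depended on control 2. Without that library the value for Ntrk2 was -0.90 (adjusted p = 0.00485, range 6.42e-05 to 0.272 over all alternatives), which no longer passed the 2-fold limit. The value for Ntrk3 without control 2, with the genes of the full comparison kept in the fit, was -1.14 (adjusted p = 0.000169, range 3.32e-06 to 0.23), and it stayed called.

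Neurotrophin-3 came next in size among the members. Ntf3 averaged 0.420 ± 0.201 FPKM after noise and 1.19 ± 0.835 in the controls, with a log2 fold change of -0.57 (95% interval -1.01 to -0.13), and it lay below the filter. In a fit without the filter its adjusted p was 0.118, and the exact permutation test gave p = 0.05. Bdnf, at 0.261 ± 0.131 against 0.627 ± 0.439 FPKM, differed by -0.34 on the log2 scale (limma adjusted p = 0.187 without the filter, exact permutation p = 0.0833). Both sizes rested on control 2 and on the scale, with -0.28 for Ntf3 and -0.13 for Bdnf without that library, and -1.30 and -1.07 by voom on the recovered fragments. Gdnf differed by -0.13 (95% interval -0.33 to 0.07) and Ntf5 by 0.04 (-0.37 to 0.44), and the sign for Ntf5 turned with array weights, to -0.27, and without control 2, to -0.16.

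For p75 and sortilin the differences were small. Ngfr averaged 4.65 ± 1.41 FPKM after noise and 4.97 ± 1.49 in the controls, and its log2 fold change of -0.09 (95% interval -0.59 to 0.42, limma adjusted p = 0.818) turned to 0.02 after median ratio scaling and to 0.09 after quantile normalization. Sort1 averaged 42.4 ± 3.46 FPKM against 35.7 ± 3.97. Its log2 fold change of 0.24 (95% interval 0.03 to 0.45) did not pass the test (adjusted p = 0.107, exact permutation p = 0.0333). The value stayed positive, between 0.16 and 0.36, under every alternative, with adjusted p between 0.0104 and 0.464.

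**Figure D2:**
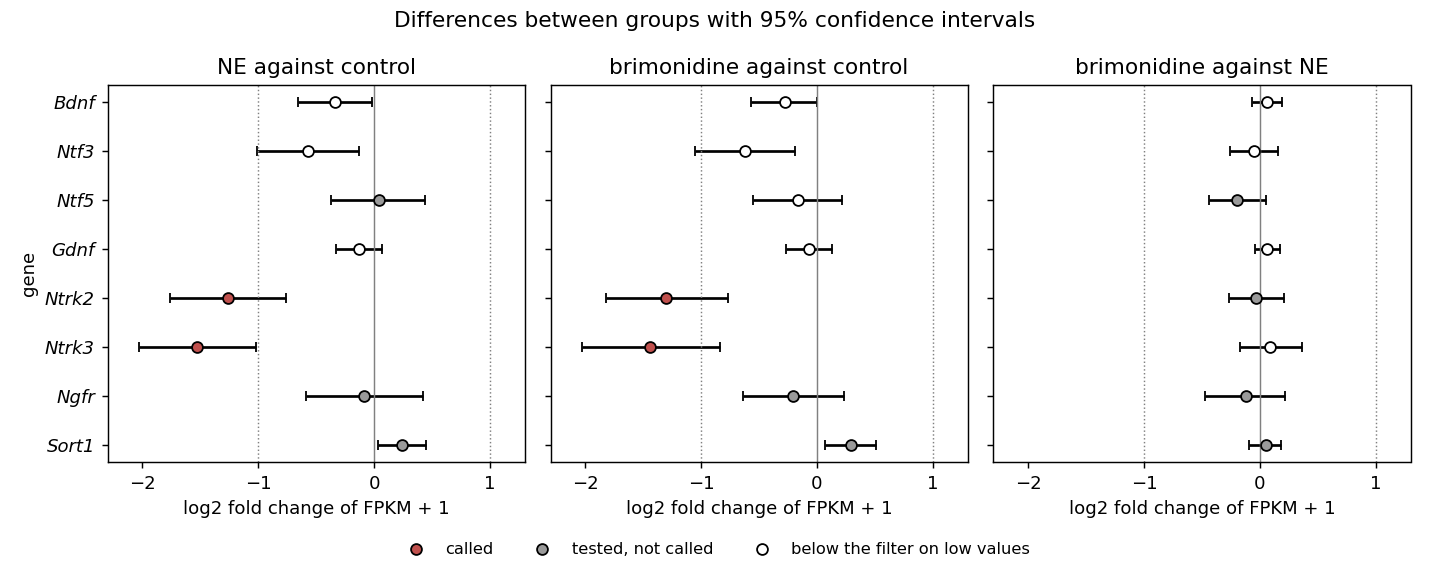
Differences between groups as log2 fold changes of FPKM + 1 for the 8 genes in the 3 comparisons, with 95% confidence intervals from limma. Red points are genes called, grey points genes tested and not called, white points genes below the filter on low levels in that comparison, and dotted lines mark 2-fold. Ntrk2 and Ntrk3 lie at -1.26 and -1.53 in NE against control, and all 8 intervals cross 0 in brimonidine against NE.

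Markers of other cell types also differed between the groups. The 13 markers of cerebellar and hindbrain neurons had a mean log2(FPKM + 1) of 3.51 to 4.66 in the controls, 0.64 to 1.27 in the NE group and 0.70 to 2.33 in the brimonidine group. All 11 tested were called lower in both exposed groups, beside 5.49% and 5.56% of all genes tested. In each comparison 7 of the 11 passed the filter on low levels only with the help of the controls, where they were high, so this count is no support of its own. Cbln1 and Cbln3, which granule cells of the cerebellum make, averaged 52.5 ± 32.5 and 62.7 ± 36.0 FPKM in the controls and 1.25 ± 0.651 and 0.742 ± 1.08 in the NE group. Zic2 changed less, from 42.2 ± 23.8 FPKM in the controls to 15 ± 1.43 in the NE group. Control 2 was the highest control for these markers, at 4.66, and brimonidine 5 the highest exposed library, at 2.33, while NE 1, at 1.27, was the highest of its group here and not for Ntrk2 or Ntrk3.

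The 11 markers of spiral ganglion neurons had a mean of 2.97 to 4.03 in the controls, 2.20 to 3.32 in the NE group and 2.35 to 2.81 in the brimonidine group. Of these, 2 of 9 tested were called lower in the NE group, Snap25 and Calb2. In the brimonidine group 3 of 9 were called lower, the same genes and Tubb3. The study, without showing the counts, reported that spiral ganglion neuron numbers did not differ between its groups at the time of RNA sampling. For the spiral ganglion list and those below, the shares called lower over all genes tested were 5.49% and 5.56%. For glia of the central nervous system the ranges were 2.50 to 3.35, 1.61 to 2.16 and 1.58 to 2.03, with 3 and 4 of 8 lower, of which 1 passed the filter only with the help of the controls. Schwann cell markers ranged from 2.91 to 3.89, 2.80 to 3.28 and 2.86 to 3.18, with 0 and 1 of 9 lower. Hair cell markers, at 1.19 to 1.88, 1.19 to 1.43 and 1.22 to 1.43, and supporting cell markers, at 2.63 to 3.70, 2.80 to 3.14 and 2.86 to 3.10, had 0 called by limma or voom in either comparison. At an unadjusted p under 0.05 there were 1 and 0 of 5 and 6 tested hair cell markers, and 1 and 2 of 8 supporting cell markers, in the NE and brimonidine comparisons with control. None of the 10 hair cell and 10 supporting cell markers was at 0 in all libraries of a group. Skeletal muscle markers ranged from 4.66 to 6.14 in the controls, 5.43 to 6.62 in the NE group and 4.95 to 6.39 in the brimonidine group. By limma 2 of 7 tested were called higher in the NE group, beside 0.270% of all genes, and 0 in the brimonidine group. Voom called 2 and 1, and 5 and 4 had an unadjusted p under 0.05, counts not split by direction. Of the 3 muscle markers of highest level, Acta1 and Tnnt3 averaged 114 ± 66 and 72.6 ± 39.1 FPKM in the controls. They were higher after noise alone, at 242 ± 78.6 and 124 ± 31.7, and with brimonidine, at 214 ± 71 and 110 ± 38.1. Pvalb was lower, with 157 ± 86.6 FPKM in the controls, 88.1 ± 11.2 after noise alone and 74.6 ± 20.3 with brimonidine. Neutrophil markers stood at 9.50 in control 2 and at 11.38 or more in the other 16 libraries, with 0 of 8 called by limma or voom in either comparison with control (1 and 2 at an unadjusted p under 0.05). The part of these markers in the lower Ntrk2 and Ntrk3 was not tested.

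**Figure D3:**
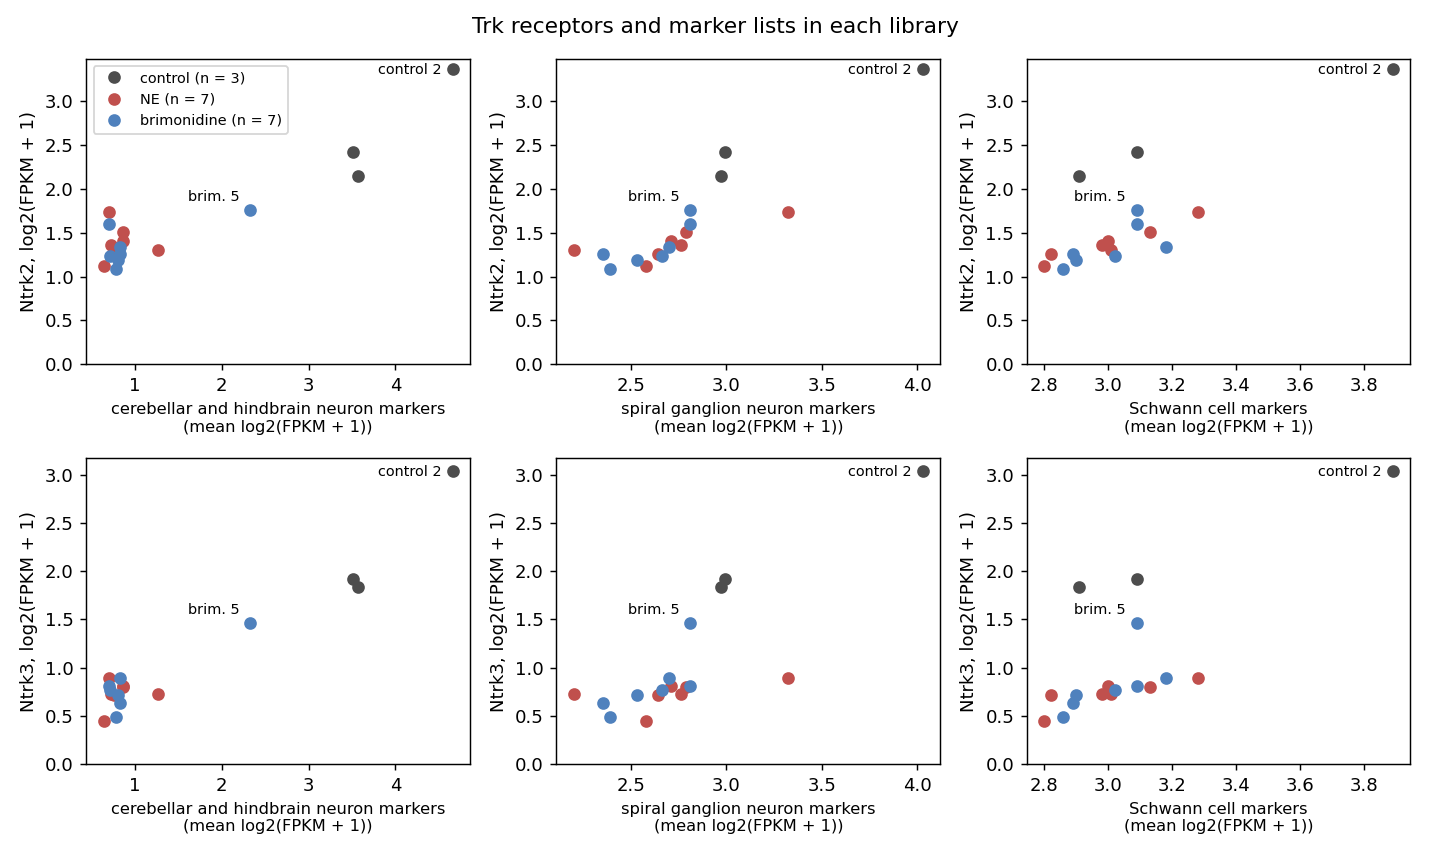
Ntrk2 (upper row) and Ntrk3 (lower row), as log2(FPKM + 1), against the mean log2(FPKM + 1) of markers of cerebellar and hindbrain neurons, spiral ganglion neurons and Schwann cells; each point is 1 of 3 control, 7 NE or 7 brimonidine libraries. The controls, at 3.51 to 4.66 on the cerebellar and hindbrain axis, lie apart from all exposed libraries, of which brimonidine 5 is the highest, at 2.33, and is also the highest exposed library for Ntrk3.

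The second comparison asked whether brimonidine changed the response to noise. Between the brimonidine and NE groups no difference was detected in any of the 8 genes. Ntrk2 averaged 1.58 ± 0.458 FPKM (SD, n = 7) with brimonidine and 1.63 ± 0.366 (n = 7) without it, which is -0.03 on the log2 scale (95% interval -0.27 to 0.21, limma adjusted p = 0.988). Ntrk3 averaged 0.812 ± 0.436 against 0.670 ± 0.153 FPKM, a difference of 0.09 (-0.17 to 0.36), and it was below the filter (exact permutation p = 0.567). Without brimonidine 5 the value for Ntrk3 was -0.01.

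Ntf5 had the widest gap of the ligands, with 0.710 ± 0.242 FPKM under brimonidine and 0.963 ± 0.291 under noise alone, a difference of -0.20 on the log2 scale (95% interval -0.44 to 0.05, limma adjusted p = 0.875, exact permutation p = 0.107). The intervals of the other ligands were -0.07 to 0.19 for Bdnf, -0.26 to 0.16 for Ntf3 and -0.04 to 0.17 for Gdnf, on the log2 scale. Ngfr differed by -0.12 (-0.47 to 0.22) and Sort1 by 0.05 (-0.09 to 0.18). With 7 libraries in each group, the bounds of Ntrk2 and Sort1 leave no room for a 2-fold change on this scale. The added 1 FPKM narrows the bounds of the low ligands and, less strongly, those of Ntrk2, at 1.58 and 1.63 FPKM. For these genes a 2-fold change of FPKM is a smaller change on this scale.

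Of the 8 members 4 were tested in this comparison and 0 were called, by limma, by voom on recovered fragments or at an unadjusted p under 0.05. Over all 15707 genes tested the limma fit also called 0 genes (0.00%), with 906 at an unadjusted p under 0.05. The study, with its own count model, reported genes that differed in both directions between brimonidine and NE. The groups overlapped for all 8 members, and 22 genes in the whole table (0.140%) had groups that did not overlap.

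The third comparison set the brimonidine group against the controls, which it shares with the first. Both Trk receptors were again lower. The log2 fold change was -1.30 ± 0.24 (SE) for Ntrk2 (limma adjusted p = 0.00486) and -1.44 ± 0.27 for Ntrk3 (limma adjusted p = 0.00528), and mean levels in the control group were 3.61 and 5.16 times as high, or 2.46 and 3.29 times without control 2. Ntrk3 again passed the filter only with the help of the controls. Of 4 members tested, 2 were called, both lower, where 5.56% of the 15947 genes tested were called lower and 0.169% higher. The groups did not overlap for Ntrk2, Ntrk3 and Ntf3, all lower with an exact permutation p = 0.0167, as for 14.3% of all genes tested.

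Ntf3 had 0.374 ± 0.176 FPKM in the brimonidine group and a log2 fold change of -0.62 (95% interval -1.05 to -0.19, adjusted p = 0.0835 in a limma fit without the filter). Sort1 differed by 0.29 (0.07 to 0.51, adjusted p = 0.0668, limma, exact permutation p = 0.0333), and Ngfr by -0.21 (-0.64 to 0.23, adjusted p = 0.467). Bdnf differed by -0.28 (exact permutation p = 0.0667), Ntf5 by -0.16 (-0.55 to 0.22) and Gdnf by -0.07 (-0.27 to 0.13), the last turning to 0.05 after quantile normalization. Ntf3 and Bdnf came to -0.32 and -0.07 without control 2 and to -1.47 and -0.74 by voom. Without control 2 the value for Ntrk2 was -0.93 (adjusted p = 0.00719, range 0.000157 to 0.0807), short of the 2-fold limit, and that for Ntrk3 was -1.05 (adjusted p = 0.0115, range 0.000149 to 0.0847).

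The order of the members by mean FPKM put receptors above ligands in the controls. FPKM divides by the merged length of all annotated exons, 30170 bases for Ntrk3 and 19292 for Ntrk2 against 1714 to 6217 for the ligands. A gene read mainly from shorter transcripts gets too low an FPKM by this length, so the order between genes is approximate. Sort1 was followed by Ntrk2, Ngfr, Ntrk3, Ntf3, Ntf5, Bdnf and Gdnf, and only Sort1 was separated from its neighbour by more than 1 SD on each side. In the NE group Ngfr stood above Ntrk2, and Ntf5 above Ntrk3, although Ntrk3 had a median of 359 fragments there and Ntf5 of 45. There the steps from Sort1 to Ngfr, from Ngfr to Ntrk2 and from Ntrk2 to Ntf5 exceeded the SDs, and the lower neighbours did not differ beyond their spread. In the brimonidine group the order was Sort1, Ngfr, Ntrk2, Ntrk3, Ntf5, Ntf3, Gdnf and Bdnf, with the first 2 steps beyond the SDs. Bdnf was thus the lowest member in both exposed groups, at 0.261 ± 0.131 and 0.308 ± 0.0658 FPKM.

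The surrounding pathways were read from 5 lists of genes. Among 18 other ligands and receptors of the neurotrophin, GDNF and ciliary neurotrophic factor families, 9 were tested between NE and control and 1 (11.1%) was called, lower, beside 5.49% of all genes tested. It was Cntfr, the binding subunit for ciliary neurotrophic factor, at 4.76 ± 0.948 against 13.4 ± 6.57 FPKM (log2 fold change -1.25, limma adjusted p = 0.00428).

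Trk signaling held 1 called gene of 43 tested (2.33%), below the 5.49% of all genes. Of 45 genes running from adaptors such as Shc1 and Frs2 over the Ras, phosphoinositide 3-kinase and MAP kinase steps to Creb1, 43 were tested. Camk4, a calcium-dependent kinase of neurons that acts on CREB, averaged 0.726 ± 0.165 FPKM after noise and 11.4 ± 6.83 in the controls, and its log2 fold change was -2.73 ± 0.24 (limma adjusted p = 9.73e-05). It passed the filter through the controls alone, so its call is no independent support. The median log2 fold change of the 43 genes was -0.08, beside -0.04 for all genes tested.

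The list around p75, with its co-receptors, adaptors and the ligands of the Nogo receptor complex, had 4 of 21 tested genes (19.0%) called lower, beside 5.49% of all genes, and a median of -0.41. Rtn4r, the Nogo receptor, averaged 0.768 ± 0.209 FPKM after noise and 5.32 ± 2.19 in the controls (log2 fold change -1.79, limma adjusted p = 0.000209), and it passed the filter only with the help of the controls. Omg, the oligodendrocyte myelin glycoprotein that binds it, had 1.76 ± 0.341 against 6.77 ± 3.03 FPKM. Mapk10, the JNK form of neurons, and Bex1, an adaptor of p75, had log2 fold changes of -1.46 and -1.37. Ngfr itself, the receptor these genes serve, differed by -0.09 in the same fit.

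Processing and sorting of proneurotrophins had 1 of 13 tested genes called (7.69%), near the 5.49% of all genes. Pcsk2, a convertase of neurons and endocrine cells, stood at 0.458 ± 0.205 FPKM against 2.23 ± 1.39 (log2 fold change -1.08, adjusted p = 0.0083, limma), and it too passed the filter through the controls alone. The median of the list was 0.01. Of the activity- and BDNF-responsive genes, 4 of 12 tested (33.3%) were called, beside 5.49% of all genes, and the median was -0.54. Fos, an immediate early gene, averaged 10.3 ± 1.84 FPKM after noise and 29.0 ± 14.9 in the controls (log2 fold change -1.31, limma adjusted p = 0.00585). Npas4, Nr4a1 and Npy had log2 fold changes of -1.37, -1.39 and -1.34, and Nr4a1 was the only one of the 11 genes called over the 5 lists whose groups overlapped. Npas4 reached at most 0.732 FPKM in the NE group and passed the filter through the controls alone, and in all 4 of the 11 called genes did so only with the help of the controls.

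In brimonidine against control, 1 of 10, 1 of 43, 4 of 21, 1 of 13 and 3 of 12 tested genes of the 5 lists were called lower, beside 5.56% of all genes, with medians of -0.16, -0.03, -0.41, -0.06 and -0.51 beside -0.03 for all genes, and Npy was not among them. Camk4, Pcsk2 and Npas4 were among them and again passed the filter only with the help of the controls. None was called higher in any of the lists. Short of 2-fold, some listed genes, Shc1 and Dusp6 among them, were higher in both comparisons with control at a limma adjusted p under 0.05, and others were lower. Between brimonidine and NE limma and voom called 0 genes of the lists, with 0, 4, 1, 2 and 2 at an unadjusted p under 0.05. Control 2 was the highest control for every gene called. Without it, and with the same genes fitted, the calls between NE and control were 0, 1, 4, 0 and 0, and those between brimonidine and control 0, 1, 3, 0 and 2. The marker lists given above differ between the same groups, and their part in these calls was not tested.

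**Figure D4:**
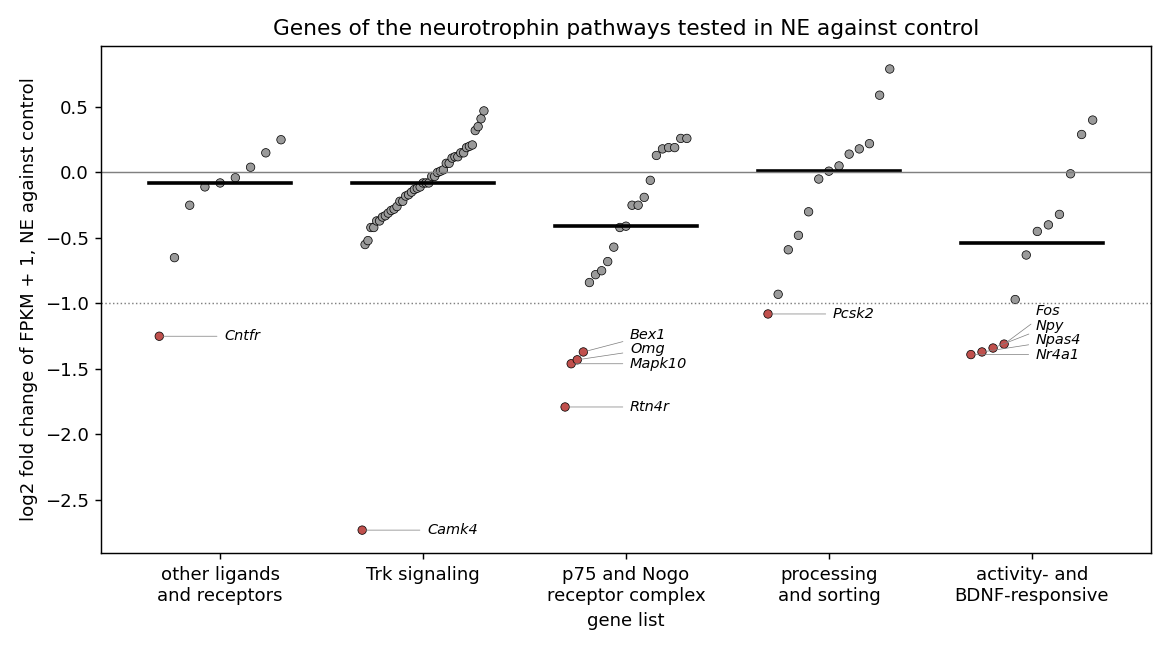
Log2 fold changes of FPKM + 1 between the NE and control groups for every tested gene of the 5 pathway lists; red points with names are genes called, black lines are list medians and the dotted line marks a 2-fold lower level. All 11 genes called are lower, from -1.08 for Pcsk2 to -2.73 for Camk4, and the medians lie at -0.08, -0.08, -0.41, 0.01 and -0.54.

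Genes with the most similar pattern were sought over the 14 exposed libraries, which leaves out the contrast with the controls, among 16415 genes. The filter for this search asked for 1 FPKM in 3 or more of all 17 libraries, controls included. These correlations are descriptions, since the libraries share cell mixture and depth. Ntrk2 was followed most closely by Pcsk2 (r = 0.96), a member of the processing list above, and by Brsk2 and Caskin1 (r = 0.95 for both), and over all 17 libraries each reached 0.99. Ntrk3 had Pclo (0.96), Pik3r3 (0.95) and Sgsm1 (0.95) closest, at 0.99 over all 17, and without brimonidine 5 these fell to between 0.86 and 0.88.

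Ngfr and Sort1 had other neighbours. Ngfr was closest to Akap12 (r = 0.92), Ctif (0.90) and Synm (0.89), and with the controls included the values were 0.77, 0.65 and 0.79. For Sort1 the closest were Cyfip2 (0.95), Fam168b (0.93) and Pik3cb (0.93), with 0.84, 0.27 and 0.94 over all 17, and for Ntf5 they were Trib1 (0.90), Rab25 (0.89) and Sftpd (0.87). Bdnf, Ntf3 and Gdnf lay below 1 FPKM in too many libraries to be placed. Between members, Ntrk2 and Ntrk3 had r = 0.98 over all 17 libraries, 0.94 without control 2 and 0.80 over the 14 exposed libraries.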

How the data were processed

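Groups were taken from the sample labels, and each library came from 1 mouse. The authors deposited FPKM values, made per the labels from reads trimmed with Trimmomatic, aligned to mm10 with HISAT2 and counted with HTSeq and Cufflinks, in versions not given in the sources used here. After multiplication by the gene's merged exon length (GENCODE M21), 91.3% of the values were whole numbers of fragments to within 0.02, and fragments and library totals are from that step. For Gdnf the length was solved from the values.

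Genes reaching 1 FPKM in 3 or more of the compared libraries were fitted on log2(FPKM + 1) with limma 3.58.1 in R 4.3.3 (eBayes with a trend), 2 groups at a time. A gene was called at a Benjamini-Hochberg adjusted p under 0.05 over all genes tested and a 2-fold or larger change in either direction. The study set the same limits, but on fold changes from the count model DESeq2, which was not used here because the values are FPKM. On FPKM + 1 the 2-fold limit is stricter for genes of low level, and the numbers of genes called differ from those of the study. The limma fit was first tested on simulated data. For single members, 24 exact permutation tests, all two-sided, were run with scipy 1.17.1 (Python 3.11.15), and no p was adjusted over the members alone. Members below the filter were also fitted with no filter.

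The members and gene lists were chosen with earlier results of these data known. Genes named are the 8 members and the called genes of each pathway list (up to 5 per direction). Also named are up to 3 markers with the highest mean level per list and the called markers of spiral ganglion neurons. The 3 genes most alike in pattern to each member that passes the filter are named too. Alternatives covered the pseudocount, the filter, scaling, the model, weights, thresholds, a replicate block, voom on recovered fragments and each library left out. Leaving out each control with the genes of the full comparison kept was chosen after seeing the data. Figures were drawn with matplotlib 3.10.9.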

Additional observations from a re-analysis of the deposited data

Results flagged for a closer look

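A library was marked where its gap to the nearest library exceeded 0.568 of the range of its group of 7, in 56 groups of values over the members, marker lists and called pathway genes, and 9 were marked. Chance marks about 1 in 20 such groups. Among the members only Ntrk3 was marked, at 0.366 FPKM in NE 6, below the next library at 0.651, and at 1.74 FPKM in brimonidine 5, above the next at 0.855. Brimonidine 5 also stood out for the markers of cerebellar and hindbrain neurons, at a mean log2(FPKM + 1) of 2.33 against 0.83 for the next, for Camk4 at 2.47 FPKM against 0.84, and for Omg at 3.48 FPKM against 1.68. NE 6 stood out for neutrophil markers, at 11.96 against 11.55, and for Nr4a1, at 17.6 against 10.7 FPKM. NE 1 had a mean of 1.27 for the cerebellar and hindbrain markers against 0.86, and NE 3 had 0.881 FPKM of Pcsk2 against 0.495.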

How the results depend on the processing

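The 2 calls between NE and control, and the 2 between brimonidine and control, held under the pseudocount of 0.1, both filters, all 3 scalings, the model with all 17 libraries, the robust fit and voom. Rescaling by the median ratio, by quantiles or in voom moved the median log2 fold change of all genes from -0.04 to 0.06 between NE and control. With array weights 1 member was called between NE and control, since Ntrk2 came to -0.98. Leaving out 1 library gave 0 to 2 called members between NE and control, where Ntrk3 dropped below the filter whenever a control was missing, and 1 to 2 between brimonidine and control. The replicate numbers of the labels shared no animal. The deviations of same-numbered libraries from their group means had correlations of -0.23 to 0.0843. With the number as a replicate block, 0 members were called in both comparisons, with Ntrk2 at -1.19 and -1.46 and Ntrk3 at -1.48 and -1.63, and calls over all genes went from 918 to 0 (2070 at an unadjusted p under 0.05) and from 913 to 236. In 1 of the 13 pairs the deviations of a library correlated best with those of its own number. The number of genes called between NE and control was 368 without control 2, and between brimonidine and control it was 468. Directions that changed belonged to differences near 0: Ntf5 between NE and control was -0.27 with array weights, -0.07 with the block and -0.16 to 0.22 with 1 library left out, and Ngfr was 0.02 by median ratio, 0.09 by quantiles, 0.04 with the block and -0.29 to 0.08 with 1 library left out. Between brimonidine and NE, leaving out 1 library gave -0.09 to 0.01 for Ntf3, -0.10 to 0.03 for Ntrk2 and -0.01 to 0.15 for Ntrk3. Between brimonidine and control it gave -0.36 to 0.02 for Ntf5 and -0.18 to 0.02 for Gdnf, and quantile normalization gave 0.05 for Gdnf. The cause of these changes was not tested. Of the refitted member values 509 kept their direction and side of the threshold, 9 lost the call and 18 changed sign. Low counts limit Ntf3, Gdnf, Bdnf and Ntf5, with a median of 10 to 45 fragments in the exposed groups.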

Other observations

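NE 3 was the highest library of its group for Bdnf (0.515 FPKM), Ntrk2 (2.31), Ntrk3 (0.852) and Ngfr (6.87), and for the markers of spiral ganglion neurons (mean log2(FPKM + 1) of 3.32) and Schwann cells (3.28).

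The ratio of Ntrk3 to Ntrk2 within a library, which no scaling factor between libraries can move, was examined after the values were seen. Ntrk3 also passed the filter only with the help of the controls, so the p-values of this ratio are no independent support. No share over other pairs of genes was computed. It was 0.740, 0.771 and 0.641 in the controls, 0.312 to 0.466 in the NE group and 0.364 to 0.728 in the brimonidine group. The log2 ratio differed from that of the controls by -0.81 in the NE group (exact two-sided permutation p = 0.0167) and by -0.57 in the brimonidine group (exact p = 0.0333). Without control 2 the difference was -0.76 in the NE group (exact p = 0.0556, the smallest that 7 against 2 allow) and -0.52 in the brimonidine group (exact p = 0.111). Brimonidine 5 had the highest ratio of the exposed libraries, 0.728. Between the brimonidine and NE groups the log2 ratio differed by 0.24 (exact permutation p = 0.167). The log2 ratio of Ngfr to Ntrk2, also examined, was higher than in the controls by 1.59 in the NE group and by 1.50 in the brimonidine group (exact permutation p = 0.0167 for both). Without control 2 the differences were 1.37 and 1.28 (exact permutation p = 0.0556 for both). Ntrk2 was already known to be lower without overlap and Ngfr to differ little, so these p-values restate that result and are no independent support.

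Over the 14 exposed libraries, the 3 receptors Ntrk2, Ntrk3 and Ngfr had r = 0.79, 0.60 and 0.77 with the mean of the Schwann cell markers, and 0.73, 0.45 and 0.83 with that of the spiral ganglion neuron markers. With the cerebellar and hindbrain markers the values were 0.49, 0.81 and 0.03, and without brimonidine 5 they were -0.06, 0.13 and -0.23. The neutrophil markers had -0.47, -0.58 and -0.77 with the 3 receptors (-0.44, -0.79 and -0.76 without brimonidine 5), the skeletal muscle markers 0.38, 0.55 and 0.66, and the supporting cell markers 0.41, 0.50 and 0.57. With hair cell, osteoblast and central glia markers the values lay between -0.13 and 0.40. Sort1 had 0.34, 0.32 and -0.02 with the Schwann cell, spiral ganglion, and cerebellar and hindbrain lists, and -0.36 with the neutrophil markers. These correlations are descriptions over libraries that share cell mixture and depth. Among the ligands, Ntf3 and Ntf5 had r = 0.71 over the 14 exposed libraries and 0.11 over all 17, at 4 to 62 fragments per library.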
